A study of Mus musculus with 5 samples.

Results

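Among the fibroblasts of the mouse colon, 626 cells carried RNA of Adamdec1 together with at least 2 of the 4 genes Ces1d, C1qtnf3, Serpina3n and Htra3, called the Ces1d set here. They made up 10.4% of the 6005 cells kept for analysis and are called the Ces1d/C1qtnf3 cells. Each had at least 300 genes, at most 10% of its counts from mitochondrial genes and a count for at least 2 of the 6 fibroblast genes Col1a2, Col3a1, Col6a1, Col6a2, Mmp2 and Dcn. Cells were left out when they had 2 or more of Saa3, Niacr1, Rasl11a and Itih5, or 2 or more of Has1, Pcolce2, Cilp, Gpr133 and Col8a1. These 20 genes chose the cells, so their levels are given as a description, with no test.

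The tissue was the colon mesenchyme of C57/BL6 mice, 10 weeks old. Neither the mice nor the cells were treated, so every cell described here shares 1 strain, 1 age and no intervention. EDTA and DTT took off the epithelium, and Collagenase XI with Dispase freed the remaining cells. RNA was captured by Drop-seq, which captures the RNA of 1 cell on 1 barcoded bead per droplet; molecules are counted by their unique molecular identifiers (UMIs). Biological replicate 1 was run as collections 1A and 1B and biological replicate 2 as collections 2A, 2B and 2C. How many animals made up a replicate was not given, and the position of a cell in the tissue was not measured.

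Fibroblasts of the lamina propria, the connective tissue between the gut epithelium and its muscle layer, lay down collagen and other matrix. They also send Wnt, BMP and growth factor signals to the epithelium and chemokines to immune cells. Adamdec1 codes for a secreted metalloprotease known from the intestinal lamina propria. Ces1d is a carboxylesterase that cleaves lipid esters, and C1qtnf3 is a secreted protein related to complement C1q and TNF. Serpina3n is a secreted inhibitor of serine proteases and Htra3 a secreted serine protease. All are protein-coding genes. In mouse build GRCm38 (mm10) Adamdec1 lies at chr14:68563380-68582095 (minus strand), Ces1d at chr8:93166068-93197838 (minus), C1qtnf3 at chr15:10952332-10980150 (plus), Serpina3n at chr12:104406729-104414329 (plus) and Htra3 at chr5:35652023-35679782 (minus). Ces1d and Serpina3n belong to clusters of similar genes, between which reads could have been divided.

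The Ces1d/C1qtnf3 cells were set beside 3 other groups of fibroblasts from the same collections. The 241 inflammatory-type cells had 2 or more of the Saa3 set and under 2 of the other sets. The 329 adventitial-type cells had 2 or more of the Has1 set and under 2 of the other sets. The 1012 other Adamdec1 cells had Adamdec1, none of the Ces1d set and under 2 of each other set. In the clustering given below they were spread over several clusters. Levels are UMI counts scaled to a common library total (counts per 1000000 UMIs, CPM) of the summed cells of a group, as mean ± SD of the 2 biological replicates. Fewer cells of a kind and less RNA per cell cannot be told apart from such a sum within a group.

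The groups differed in depth and in the share of cells that carried markers of other types. The Ces1d/C1qtnf3 cells had a median of 1417 UMIs and 795 genes, against medians of 1816, 1743 and 1300 UMIs in the inflammatory-type, adventitial-type and other Adamdec1 cells. Marker-carrying cells had 2 or more markers of 1 other type. The types counted were macrophages, T, natural killer or innate lymphoid cells, B cells, blood and lymphatic endothelium, pericytes, enteric glia and epithelium. Smooth muscle, plasma cell, dendritic cell and enteric neuron markers, among others, were not counted for this. Marker-carrying cells made up 5.91% of the Ces1d/C1qtnf3 cells (37 cells). They made up 17.0% of the inflammatory-type, 6.08% of the adventitial-type and 20.7% of the other Adamdec1 cells. A doublet caller marked 23 of the 6005 cells (0.383%), too few for it to have worked, so doublets remained. No UMI of the B-cell gene Cd22, the neutrophil genes S100a8 and S100a9, the T-cell genes Cd3g and Trbc1, the mesothelial genes Msln, Upk3b, Lrrn4 and Wt1 or the epithelial genes Krt8, Krt20, Cdh1 and Car1 was found in the Ces1d/C1qtnf3 cells. Other genes of these lists had a few: 3 of 5 B-cell markers (12 UMIs in all), 2 of 4 neutrophil markers (3 UMIs), 5 of 8 markers of T, natural killer or innate lymphoid cells (30 UMIs), 1 of 5 mesothelial markers (5 UMIs) and 5 of 9 epithelial markers (22 UMIs). Larger totals came from plasma cell (594 UMIs, 277 in 1 cell), smooth muscle (500, 112 in 1 cell) and blood endothelial markers (305, 100 in 1 cell). Lymphatic endothelial markers had 284 UMIs (235 in 1 cell), pericyte markers 195 and macrophage markers 164. Collections shared 6 cell barcodes, 1 of them among the Ces1d/C1qtnf3 cells.

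Ces1d was detected in 48.7% of the Ces1d/C1qtnf3 cells, Serpina3n in 46.8%, Htra3 in 65.7% and C1qtnf3 in 80.7%. In 370 cells defined by at least 3 macrophage markers, which should lack these genes, the shares were 3.78%, 2.70%, 5.14% and 4.05% at a median of 1788.5 UMIs. Ces1d/C1qtnf3 cells, 3 of which had at least 3 macrophage markers, were left out of these 370. The gate itself required at least 2 of the 4 genes in the Ces1d/C1qtnf3 cells. With every cell thinned to 1000 UMIs, Ces1d was found in 36.0% of 492 Ces1d/C1qtnf3 cells and in 2.05% of 293 macrophage-marker cells. Adamdec1 was less clean a marker. It had a UMI in 24.3% of the macrophage-marker cells and in 23.7% of the adventitial-type cells. The source of these UMIs was not tested. Serpina3n was also found in 31.4% of 121 enteric glia-marker cells.

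Ces1d stood at 621, 544, 589, 500.5 and 681 CPM in the Ces1d/C1qtnf3 cells of collections 1A, 1B, 2A, 2B and 2C. C1qtnf3 measured 1140, 1177, 1066, 925 and 977 CPM in the same order. Serpina3n ran from 377 CPM in 2A to 526 CPM in 1B, and Htra3 from 470 CPM in 1B to 658 CPM in 2A. Neither Serpina3n nor Htra3 was high in all collections of 1 replicate and low in all of the other. C1qtnf3 was higher in both collections of replicate 1 than in any of replicate 2, a difference that was not tested. Adamdec1 reached 5421 ± 584 CPM in the Ces1d/C1qtnf3 cells, 3081 ± 298 in the inflammatory-type, 2409 ± 262 in the other Adamdec1 and 249.6 ± 116 in the adventitial-type cells. Ces1d was at 594 ± 11.1 CPM against 82.7 ± 55.0 in the inflammatory-type and 22.4 ± 21.6 in the adventitial-type cells. The other Adamdec1 cells were at 0 for the Ces1d set by construction. Itih5, a hyaluronan-binding chain counted in the Saa3 set, was not low in the Ces1d/C1qtnf3 cells: it stood at 486 ± 36.2 CPM, with 589.5 ± 19.7 in the inflammatory-type and 105 ± 12 in the other Adamdec1 cells.

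**Figure D1:**
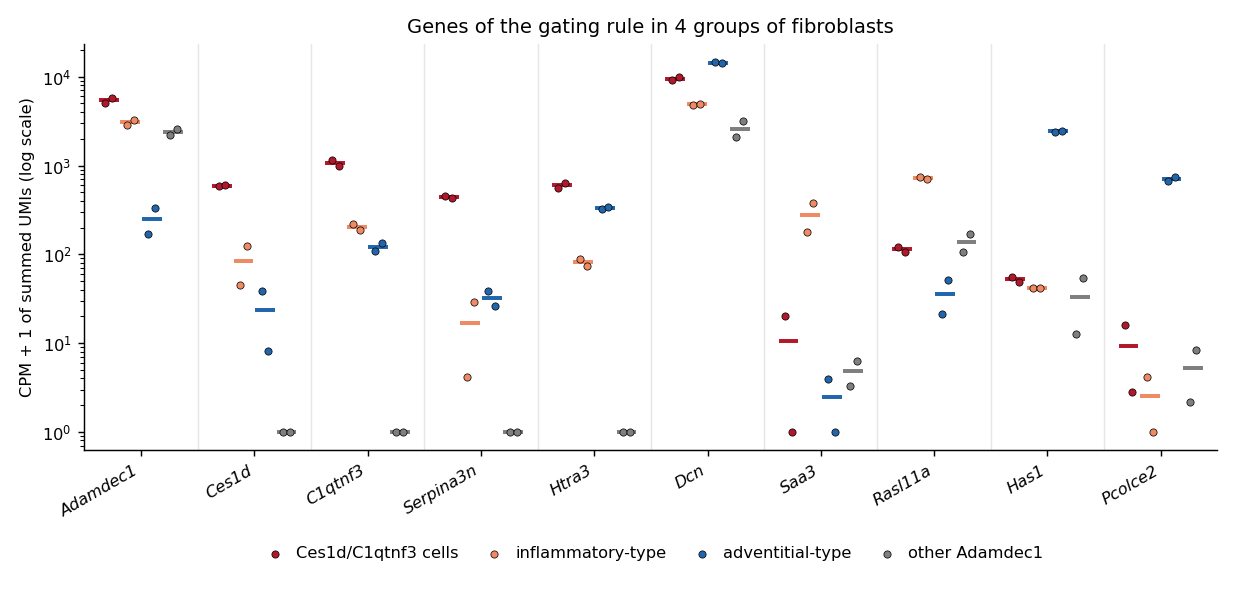
Levels of 10 of the genes that chose the cells, as CPM + 1 on a log scale, in the 4 groups of fibroblasts (points are the 2 biological replicates, bars their mean). Adamdec1 was at 5421 CPM in the Ces1d/C1qtnf3 cells and 250 CPM in the adventitial-type cells, and the Ces1d set was at 0 in the other Adamdec1 cells because the gate required it.

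Most of the Ces1d/C1qtnf3 cells met the rule at its lowest setting. Exactly 2 genes of the Ces1d set were found in 403 cells, 3 in 184 and all 4 in 39. C1qtnf3 and Htra3 were found together in 316 of the 626 cells (50.5%), Ces1d and C1qtnf3 in 226 (36.1%) and Ces1d and Serpina3n in 130 (20.8%). Most of the cells therefore did not show both of the genes they are named for. A further 185 fibroblasts had 2 genes of the Ces1d set but no Adamdec1 UMI. The exclusions removed 161 cells with 2 or more of the Saa3 set and 45 with 2 or more of the Has1 set, 5 of which met both.

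The share of Ces1d/C1qtnf3 cells among fibroblast-gate cells was 14.1% ± 1.03 (SD, n = 2 biological replicates). By collection it was 14.1% in 1A, 12.4% in 1B, 14.5% in 2A, 13.8% in 2B and 16.1% in 2C. The exact (Clopper-Pearson) 95% intervals were 11.9 to 14.9% for biological replicate 1 and 13.4 to 16.3% for replicate 2, and they overlapped. Of all cells kept for analysis, the share was 9.31% in replicate 1 and 11.57% in replicate 2. There the intervals, 8.297 to 10.395% and 10.442 to 12.779%, did not overlap. These intervals cover counting error only. The share among fibroblast-gate cells differed with depth. It was 7.43% of cells under 750 UMIs, 18.5% of those from 1000 to 1500 UMIs and 8.59% of those with 2500 UMIs or more.

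Outside the rule, the genes with the most similar pattern were ranked by their level in the Ces1d/C1qtnf3 cells over the highest of the other 3 groups, among tested genes of at least 50 CPM. The first 10 were Mmp3 (ratio 4.45), Vipr2 (4.02), Edil3 (3.50), Sfrp1 (3.39), Tnfsf13b (3.24), Fgf10 (3.03), Vstm4 (3.02), Hsd11b1 (2.94), Fam198b (2.92) and Igfbp5 (2.84). They were picked for this ratio, so it is a description. Sfrp1, a secreted antagonist of Wnt signalling, stood at 1257, 1182, 1088, 1015 and 921 CPM in collections 1A, 1B, 2A, 2B and 2C. The other 3 groups held 328 ± 34.9, 295 ± 54.1 and 218 ± 17.9 CPM, below every collection of the Ces1d/C1qtnf3 cells. Hsd11b1, which converts inactive into active glucocorticoid, measured 324, 256, 345, 348 and 258 CPM by collection. The next group, the adventitial-type cells, held 103 ± 71.5 CPM.

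Fgf10, a growth factor that acts on epithelium, was at 85.9, 88.4, 143, 76.5 and 131.5 CPM by collection and at 34.3 ± 8.76 CPM in the inflammatory-type cells. Igfbp5, a secreted binder of insulin-like growth factors, ran from 619 to 855 CPM and was at 259 ± 115 CPM in the inflammatory-type cells. Tnfsf13b, the B-cell survival factor BAFF, ran from 56.4 to 111 CPM against 23.6 ± 6.80 CPM. Edil3, a matrix protein that binds integrins, ran from 122 to 180 CPM against 40.1 ± 5.16 CPM. Mmp3, a matrix metalloprotease, was uneven: 78.1, 74.4 and 118 CPM in 1A, 1B and 2B, but 10.6 and 9.39 CPM in 2A and 2C. Its lowest collections lay at the 12.9 ± 1.88 CPM of the adventitial-type cells, so its rank at the top of the list rested on 3 of the 5 collections. Vipr2, a receptor for vasoactive intestinal peptide, ran from 37.2 to 84.9 CPM. Vstm4 had no UMI in the adventitial-type cells, where 3 UMIs would be 4.79 CPM. These 10 genes were picked by this ratio, and Mmp3, Vipr2 and Vstm4 reached the filter on low counts through the Ces1d/C1qtnf3 cells alone. Tests of the 10 that are given with their lists repeat the choice and are not separate support. In the main test described below, which covered 6595 genes, all 10 were higher than each of the other 3 groups. With part of each cell's UMIs choosing the cells and the rest measured, 2 of the 10 were. Only 2846 genes were tested in that setting. With DESeq2 in place of edgeR, 5 of the 10 were higher than each group, and without marker-carrying cells 8 were.

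**Figure D2:**
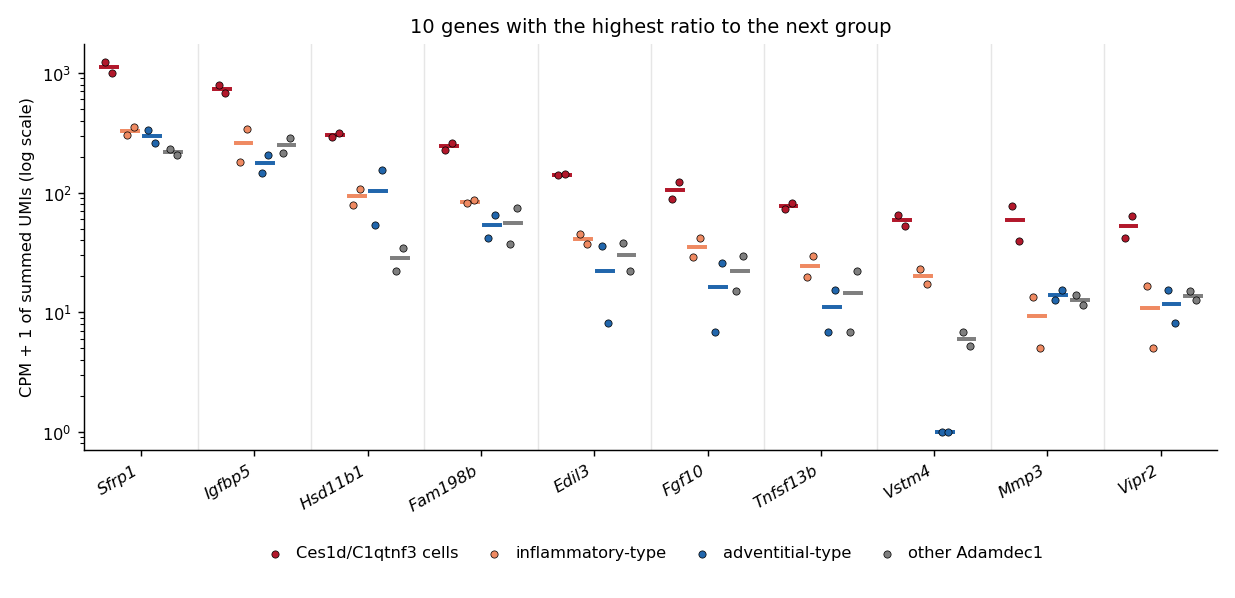
Levels of the 10 genes with the highest ratio of the Ces1d/C1qtnf3 cells to the next group, as CPM + 1 on a log scale (points are the 2 biological replicates, bars their mean). For each gene both points of the Ces1d/C1qtnf3 cells lie above every other point, from Sfrp1 at 1113 CPM to Vipr2 at 51.3 CPM, and Vstm4 was at 0 in the adventitial-type cells.

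Differences from the other groups were tested with edgeR on sums per biological replicate, over 6595 genes outside the rule, with Benjamini-Hochberg adjusted p under 0.05 as the threshold. Fold changes are log2 differences ± SE, with the Ces1d/C1qtnf3 cells first. Genes and gates were read from the same UMIs of the same cells. Each comparison was therefore repeated with the UMIs of each cell split at random, so that 1 part chose the cells and the other was measured. The 2 replicates are all there were, and p-values cover the spread between these sums. Nothing in the labels says how many mice stand behind each.

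Against the other Adamdec1 cells, 728 genes were higher (11.0% of those tested) and 947 were lower (14.4%). The genes with the largest increase were Hsd11b1, Ccl11, Grem1, Fzd1, Mfap4, Clec3b, Mgp, Fbln1, Sfrp1 and Ccdc80. Ccl11, the eosinophil chemoattractant eotaxin, was at 191, 149, 265, 181 and 150 CPM by collection, against 23.3 ± 11.6 CPM in the other Adamdec1 cells. The log2 difference was 3.07 ± 0.27 (adjusted p = 1.6e-09). Grem1, a secreted BMP antagonist, was at 355, 260.5, 255, 327 and 376 CPM against 44.8 ± 14.0 CPM, a log2 difference of 2.88 ± 0.28 (adjusted p = 9.5e-09). Hsd11b1 differed by 3.55 ± 0.25 (adjusted p = 2e-11) and the Wnt receptor Fzd1 by 2.83 ± 0.24 (adjusted p = 6.3e-10). Mgp, a matrix protein that inhibits calcification, was at 1565 ± 113 against 287 ± 26.3 CPM. For each of these 10 genes the difference passed in all 20 alternatives that had a test, the split UMIs included.

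The genes with the largest decrease against the other Adamdec1 cells were Il1rl1, Csf2rb, Mmp13, Bcl2a1d, Stc1, Plau, H2-Eb1, Cd52, Il1b and H2-Aa. Plau, the urokinase plasminogen activator, was at 22.5 ± 1.85 against 405 ± 161 CPM (-4.03 ± 0.29, adjusted p = 2.8e-11). Il1rl1, the receptor for interleukin 33, was at 4.25 ± 6.0 against 130 ± 78.8 CPM. Several of these genes are known from leukocytes, and marker-carrying cells differed between the groups. The 9 listed macrophage markers, of which 8 were in the tables and had a UMI, summed to 63.7 to 385 CPM by collection in the Ces1d/C1qtnf3 cells and to 599 to 1547 CPM in the other Adamdec1 cells. The 8 blood endothelial markers summed to 69.5 to 662 against 1159 to 1577 CPM, and the 6 smooth muscle markers to 196 to 1289 against 872 to 1668 CPM. None of the markers in the tables was at 0 in either group. Without marker-carrying cells, for which smooth muscle markers were not counted, 338 genes were higher and 500 lower. The difference was then -4.76 for Plau and -5.83 for Il1rl1, both past the threshold. Cd52, Bcl2a1d and Mmp13 were then too low to be tested. With split UMIs 182 genes were higher and 220 lower.

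Against the inflammatory-type cells, 372 genes were higher (5.64%) and 667 lower (10.1%). The largest increases were in Ccl11, Mgp, Hmcn2, Cd55, Mfap4, Edil3, Sfrp1, Hsd11b1, Entpd2 and Lepr. Ccl11 was at 185 ± 18.5 against 26.1 ± 14.7 CPM, a log2 difference of 2.87 ± 0.36 (adjusted p = 1.5e-06). Mgp was at 1655, 1633, 1533, 1516 and 1423 CPM by collection against 364 ± 81.4 CPM (2.12 ± 0.16, adjusted p = 3.2e-10). Cd55, which shields cells from complement, was at 379 ± 30.8 against 89.5 ± 6.14 CPM (2.07 ± 0.22, adjusted p = 9.2e-08). Lepr, the leptin receptor, was at 132 ± 3.11 against 39.7 ± 10.2 CPM. Hsd11b1, Edil3, Hmcn2 and Lepr kept their direction but did not pass with split UMIs, where their adjusted p were 0.18, 0.13, 0.075 and 0.088. The other genes of these 10 passed there too.

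The largest decreases against the inflammatory-type cells were in Ccl4, Plau, Rnd1, Cdh5, Clu, Lyz2, H2-Eb1, Nrg1, Plvap and Bcr. Nrg1, an EGF-family ligand, was at 26.0 ± 8.25 against 184 ± 18.9 CPM (-2.81 ± 0.30, adjusted p = 1.7e-07). Bcr was at 60.5 ± 10.5 against 396.5 ± 84.9 CPM (-2.69 ± 0.23, adjusted p = 3e-09). Plvap and Cdh5 mark endothelium and Lyz2 marks macrophages. Blood endothelial markers summed to 169 to 2456 CPM by collection in the inflammatory-type cells and macrophage markers to 199 to 1909 CPM. Without cells that had 2 or more markers of another type, the difference in Lyz2 was -0.01 (adjusted p = 0.99), in Plvap -0.30 (adjusted p = 0.84) and in H2-Eb1 -0.35 (adjusted p = 0.72). Plau, Nrg1 and Bcr were then still lower, with differences of -3.87, -3.20 and -2.61. Among cells of 1000 to 4000 UMIs the Rnd1 difference turned to 1.02 (adjusted p = 0.64). The counts were 153 higher and 371 lower without those cells, and 74 and 153 with split UMIs.

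Against the adventitial-type cells, 599 genes were higher (9.08%) and 810 lower (12.3%). Tnc, the matrix protein tenascin C, was at 765 ± 182 against 50.55 ± 14.2 CPM, a log2 difference of 3.84 ± 0.23 (adjusted p = 4.1e-13). Igfbp3 was at 882 ± 371 against 84.4 ± 69.0 CPM (3.28 ± 0.22, adjusted p = 2.3e-12), and Tmem176b at 1376 ± 100 against 137 ± 38.0 CPM. Hpse, a heparanase that cleaves heparan sulfate, was at 155 ± 6.26 against 10.0 ± 5.98 CPM. Cp, Srpx2, Lin7a and Nexn were higher by 3.36 to 3.81. Igkc and Lyve1 also ranked among the 10, but 1 cell held 942 of the 1125 Igkc UMIs and 1 held 90 of the 97 Lyve1 UMIs in replicate 1. Without cells that carried other-type markers the Igkc difference was 0.09 (adjusted p = 0.92), and Lyve1 was not tested.

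The genes lowest relative to the adventitial-type cells were Pi16, Ptx3, Prlr, Cmah, Gfpt2, Sfrp4, Gas1, Lrrn4cl, Ebf1 and Ifi204. Pi16, a marker of perivascular fibroblasts, was at 12.2 ± 6.82 against 620 ± 307 CPM (-5.75 ± 0.32, adjusted p = 9.2e-14). Gfpt2, an enzyme of the hexosamine pathway, was at 88.0 ± 7.68 against 1994 ± 268 CPM (-4.59 ± 0.18, adjusted p = 6.4e-17). Ebf1, a transcription factor, was at 27.55 ± 0.0597 against 464 ± 29.2 CPM. Without marker-carrying cells, which made up 5.91% and 6.08% of the 2 groups, 659 genes were higher and 832 lower. With split UMIs the counts were 292 and 367.

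In all 3 comparisons alike, 123 genes were higher (1.87% of those tested) and 202 were lower (3.06%). The 3 comparisons share the Ces1d/C1qtnf3 cells, so these are not separate observations. Among the higher genes with high counts were Igfbp7, Postn, Rarres2, Serpinh1, Bgn, Cxcl12, Bmp4, Ifitm1, Sfrp1, Spon2 and Igfbp4, and also Fos, Hspa1a, mt-Cytb and mt-Nd4. The median mitochondrial share was 4.87% in the Ces1d/C1qtnf3 cells and 4.65%, 4.13% and 4.85% in the inflammatory-type, adventitial-type and other Adamdec1 cells. Among the lower genes were Nfkbia, Hspa5, Gadd45b, Klf6, Atf4 and Ppp1r15a, which respond to stress and inflammatory signals. Tissue digestion can induce such genes, and its part was not tested. Of 24 tested immediate-early and heat-shock genes, 2 were higher and 10 lower than in the inflammatory-type cells, 9 higher and 6 lower than in the adventitial-type cells, and 7 higher and 4 lower than in the other Adamdec1 cells. Fos and Hspa1a were higher and Nfkbia lower in each. Without marker-carrying cells the counts were 1 and 14 against the inflammatory-type and 1 and 6 against the other Adamdec1 cells, and Fos did not pass in either (adjusted p = 0.7 and 0.076). With split UMIs 30 genes were higher in all 3, 26 of them among the 123, and 35 were lower, 30 of them among the 202.

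Counts for each list are to be read beside the shares over all tested genes. These were 5.64% higher and 10.1% lower (inflammatory-type), 9.08% and 12.3% (adventitial-type) and 11.0% and 14.4% (other Adamdec1). Without marker-carrying cells, 5900 genes were tested, with 153 and 371, 659 and 832, and 338 and 500 called. With split UMIs 2846 were tested, with 74 and 153, 292 and 367, and 182 and 220 called. Most matrix proteoglycans and glycoproteins were higher than in the other Adamdec1 cells. Of 34 tested proteoglycans and glycoproteins (39 listed), 31 were higher there and 1, Sparcl1, was lower. The median log2 difference was 1.39, against 0.02 over all tested genes. Against the inflammatory-type cells 24 were higher and none lower, with a median of 0.88 against 0.01. Without marker-carrying cells 26 and 14 of the 34 were higher in these 2 comparisons, and with split UMIs 25 and 12 of 33. Dpt, dermatopontin, was at 3212 ± 3.93 CPM, Postn, periostin, at 2956 ± 509 CPM, Bgn, biglycan, at 1992 ± 2.32 CPM and Spon2 at 930 ± 124 CPM. Postn exceeded each other group, by 0.61 ± 0.13 (inflammatory-type, adjusted p = 0.0016), 1.69 ± 0.14 (adventitial-type, adjusted p = 2.8e-10) and 1.28 ± 0.13 (other Adamdec1, adjusted p = 1.7e-08). The first of these did not pass without marker-carrying cells or with split UMIs.

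Against the adventitial-type cells the matrix split in both directions, with 16 of 34 higher and 8 lower. Mfap4, Svep1, Spon1, Edil3, Emilin1 and Tnc were among the higher genes. Lum, Dpt, Fbn1, Mfap5, Tnxb and Fbln2 were among the lower ones. Mfap5, a microfibril protein, was at 311 ± 49.98 against 727 ± 85.7 CPM (-1.31 ± 0.17, adjusted p = 1.8e-06). Of 16 tested collagens, 5 were higher than in the adventitial-type cells (Col4a2, Col12a1, Col15a1, Col18a1, Col27a1) and 2 lower (Col6a3, Col14a1). Col15a1, which links basement membranes to the matrix around them, was at 400.0 ± 67.7 CPM against 194 ± 0.496, 97.2 ± 18.7 and 105 ± 23.7 CPM in the inflammatory-type, adventitial-type and other Adamdec1 cells. It passed in all 3 comparisons (adjusted p = 0.00072, 2.2e-07 and 5.9e-09). Col14a1 was lower than in the adventitial-type cells (474 ± 11.3 against 1676 ± 234 CPM) and higher than in the other Adamdec1 cells (107 ± 0.609 CPM). Of the 16 collagens, 7 were higher and 1 lower than in the inflammatory-type cells, and 10 higher and 2 lower than in the other Adamdec1 cells. Without marker-carrying cells 2 were higher and 1 lower in the first of these and 5 higher and 2 lower in the second, and 8 were higher than in the adventitial-type cells. Of 10 tested basement membrane genes, the laminin chains Lama2, Lama4 and Lamc1 were higher than in the inflammatory-type and other Adamdec1 cells, with Lama5 lower in the second. Without marker-carrying cells 1 of 8 tested was higher in each of these, and Lama4 (adjusted p = 0.3 and 0.054) and Lamc1 (adjusted p = 0.53 and 0.39) did not pass. Against the adventitial-type cells Lamb1 was higher, and Lamb2, Lamc1 and Nid1 were lower.

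Among proteases and their inhibitors, 39 of 42 listed genes were tested. Against the other Adamdec1 cells 17 were higher and 7 lower, against the inflammatory-type cells 7 and 7, and against the adventitial-type cells 6 and 8. One of the higher genes, Mmp3, reached the filter on low counts through the Ces1d/C1qtnf3 cells alone. Without marker-carrying cells 11 were higher and 5 lower than in the other Adamdec1 cells, and 2 higher and 7 lower than in the inflammatory-type cells. The proteases Adamts1 and Adamts4, which cleave proteoglycans, were lower in each comparison, although Adamts4 did not pass against the other Adamdec1 cells with split UMIs (adjusted p = 0.26) or without marker-carrying cells (adjusted p = 0.11). Adamts1 was at 446.5 ± 53.0 CPM against 1021 ± 533, 2396 ± 486 and 741 ± 271 CPM. Serpinh1, a collagen chaperone, and Pcolce, which speeds procollagen processing, were higher in each. Serpinh1 was at 2300 ± 74.3 CPM against 1401 ± 31.0, 1015 ± 64.4 and 1180 ± 127 CPM. Without marker-carrying cells neither passed against the inflammatory-type cells (adjusted p = 0.081 for Serpinh1 and 0.19 for Pcolce).

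**Figure D3:**
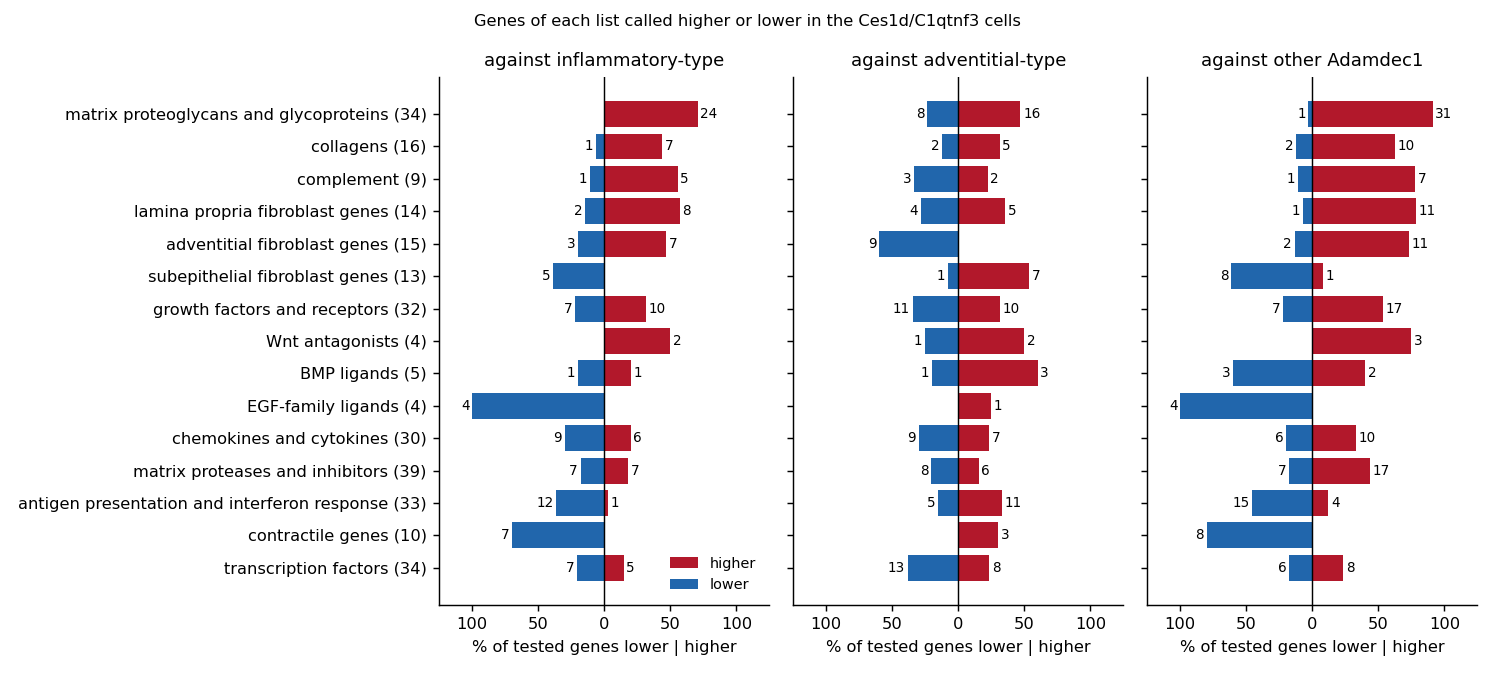
Share of the tested genes of 15 lists that were higher (red, right) or lower (blue, left) in the Ces1d/C1qtnf3 cells than in each other group, with the number of genes at each bar and the number tested in brackets. Over all 6595 genes the shares were 5.64% and 10.1%, 9.08% and 12.3%, and 11.0% and 14.4% from left to right, and matrix glycoproteins reached 31 of 34 genes higher in the third panel.

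Many of the listed Wnt and BMP genes did not pass the filter on low counts. Of 4 tested Wnt antagonists (11 listed), Sfrp1 and Dkk3 were higher than in each other group, and Frzb was higher than in the other Adamdec1 cells (29.2 ± 5.33 against 4.37 ± 1.25 CPM). Frzb reached the filter on low counts through the Ces1d/C1qtnf3 cells alone, so its difference had to show and is a description. Dkk3 did not pass against the inflammatory-type (adjusted p = 0.29) and other Adamdec1 cells (adjusted p = 0.12) without marker-carrying cells. Sfrp4 was lower than in the adventitial-type cells. Sfrp1 differed by 1.77 ± 0.17, 1.82 ± 0.17 and 2.42 ± 0.16 from the inflammatory-type, adventitial-type and other Adamdec1 cells (adjusted p = 1.8e-08, 2.5e-09 and 2.8e-12), and passed in all 20 alternatives of each comparison. Of 5 tested Wnt ligands and R-spondins, none passed against the inflammatory-type cells, 3 were higher than in the adventitial-type cells, and 2 were higher and 1 lower than in the other Adamdec1 cells. Wnt2b was at 59.4 ± 12 CPM, above the adventitial-type (12.25 ± 7.25 CPM) and other Adamdec1 cells (11.7 ± 3.18 CPM). Wnt5a was lower than in the other Adamdec1 cells. Rspo3, which amplifies Wnt signalling at stem cells, was at 31.0 ± 10.2 CPM, and it passed only against the other Adamdec1 cells (10.3 ± 4.73 CPM).

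Bmp4, a BMP ligand, was at 1074, 1135, 1236, 1237 and 1085 CPM by collection. The inflammatory-type cells held 599 ± 184 CPM, the adventitial-type 205 ± 7.31 CPM and the other Adamdec1 cells 563 ± 188 CPM. The difference passed in each comparison (adjusted p = 0.00014, 1.2e-10 and 2.7e-06) and in all 20 alternatives of each. Of the 5 tested BMP ligands, Bmp2, Bmp5 and Bmp7 were lower than in the other Adamdec1 cells and Bmp1 was higher. Bmp2 was lower than in the inflammatory-type cells, and Bmp5 and Bmp7 were higher and Bmp1 lower than in the adventitial-type cells. Bmp5 was at 179.5 ± 7.38 CPM against 312 ± 8.28 CPM in the other Adamdec1 cells and 26.2 ± 8.34 CPM in the adventitial-type cells. Of the 4 tested BMP antagonists, Grem1 and Fstl1 were higher than in the inflammatory-type and other Adamdec1 cells, and Fst was lower than in the latter. Without marker-carrying cells Fstl1 did not pass against the inflammatory-type cells (adjusted p = 0.76), nor Bmp1 against the other Adamdec1 cells (adjusted p = 0.31). Fst and Fstl1 were lower than in the adventitial-type cells, from which no difference in Grem1 was detected (0.19 ± 0.26, adjusted p = 0.66). Of the Hedgehog pathway genes, the inhibitor Hhip was lower in each comparison and Gas1, a co-receptor, was lower than in the adventitial-type cells.

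EGF-family ligands were lower than in 2 of the 3 groups. All 4 tested members (Areg, Ereg, Nrg1, Hbegf) were lower than in the inflammatory-type cells and than in the other Adamdec1 cells, and 1, Ereg, was higher than in the adventitial-type cells. Ereg was at 255 ± 36.3 CPM against 543 ± 126, 56.8 ± 9.79 and 491 ± 49.2 CPM. Without marker-carrying cells 3 of the 4 were lower in each of the first comparisons, Hbegf being the exception.

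Of 32 tested growth factors, binding proteins and receptors, 17 were higher and 7 lower than in the other Adamdec1 cells, 10 were higher and 11 lower than in the adventitial-type cells, and 10 were higher and 7 lower than in the inflammatory-type cells, where 5 and 5 were without marker-carrying cells. Among all genes, with all cells, the shares were 11.0% and 14.4%, 9.08% and 12.3%, and 5.64% and 10.1% in this order. Fgf10, the FGF receptor Fgfr2, Igfbp3, Igfbp4, Igfbp5 and Igfbp7 were higher in each comparison. Igfbp4 was at 886 ± 46.9 CPM against 379 ± 25.7, 391 ± 147 and 176 ± 24.9 CPM. Fgf10 differed by 1.59 ± 0.35, 2.73 ± 0.42 and 2.36 ± 0.29 (adjusted p = 0.002, 1.3e-05 and 4.3e-07). The first of these did not pass with split UMIs (adjusted p = 0.076). Igfbp3 and Fgfr2 did not pass against the inflammatory-type cells without marker-carrying cells (adjusted p = 0.071 and 0.42). Fgf7, Fgf9 and Vegfa were lower in each comparison. Hgf, hepatocyte growth factor, was at 120.0 ± 19.6 CPM, above the adventitial-type (21.6 ± 10.4 CPM) and other Adamdec1 cells (47.4 ± 17.7 CPM) but not detectably above the inflammatory-type cells (93.3 ± 17.0 CPM).

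Of 30 tested chemokine and cytokine genes, 6 were higher and 9 lower than in the inflammatory-type cells, 7 higher and 9 lower than in the adventitial-type cells, and 10 higher and 6 lower than in the other Adamdec1 cells. Without marker-carrying cells the higher ones were 3 against the inflammatory-type and 11 against the adventitial-type cells. With all cells, the shares over all genes were 5.64% and 10.1%, 9.08% and 12.3%, and 11.0% and 14.4% for the 3 groups in turn. Cxcl12, which holds lymphocytes and progenitors in place, was at 1484, 1023, 1045, 994 and 1071 CPM by collection. It exceeded the inflammatory-type (459 ± 116 CPM), adventitial-type (304 ± 32.4 CPM) and other Adamdec1 cells (394 ± 17.8 CPM) in all 20 alternatives. Cxcl13, the B-cell attractant, was at 152, 93.0, 37.1, 55.6 and 79.8 CPM, higher than in each other group (adjusted p = 0.00087, 0.008 and 0.00056). The collections of replicate 1 were above those of replicate 2, a difference of -1.07 ± 0.36 that did not pass between replicates (adjusted p = 0.75). Ccl8 was at 134 ± 51.6 CPM, higher than in the adventitial-type and other Adamdec1 cells. Ccl11 did not pass against the adventitial-type cells (0.71 ± 0.26, adjusted p = 0.05). The neutrophil attractants Cxcl1 and Cxcl2 were lower than in the inflammatory-type and adventitial-type cells, with Cxcl1 at 1138 ± 74.3 against 2370 ± 566 and 2648 ± 244 CPM. Ccl2 was at 173 ± 13.7 CPM, lower than the 896 ± 47.2 CPM of the adventitial-type and higher than the 69.1 ± 12.2 CPM of the other Adamdec1 cells.

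Genes known from other colon fibroblasts differed by the group compared. Of 14 tested lamina propria fibroblast genes, 8 were higher and 2 lower than in the inflammatory-type cells, 5 higher and 4 lower than in the adventitial-type cells, and 11 higher and 1 lower than in the other Adamdec1 cells. Cygb, a globin, and Hsd11b1, Sfrp1 and Cxcl12 were higher in each. Apoe was lower than in the inflammatory-type and other Adamdec1 cells, and the second difference reversed to 0.51 (adjusted p = 0.089) without marker-carrying cells. Of 15 tested adventitial fibroblast genes, 9 were lower and none higher than in the adventitial-type cells, but 11 were higher and 2 lower than in the other Adamdec1 cells, and 7 higher and 3 lower than in the inflammatory-type cells. Cd34 was at 378 ± 41.7 CPM, between the adventitial-type (635 ± 33.9 CPM) and the inflammatory-type and other Adamdec1 cells (137 ± 27.4 and 115 ± 21.4 CPM). Clec3b, tetranectin, was at 938 ± 6.33 CPM, close to the 965 ± 24.2 CPM of the adventitial-type cells (-0.13 ± 0.16, adjusted p = 0.62).

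Of 13 tested genes of subepithelial fibroblasts, 8 were lower and 1, Tnc, higher than in the other Adamdec1 cells, and 5 were lower and none higher than in the inflammatory-type cells. The Tnc difference was -0.03 (adjusted p = 0.94) without marker-carrying cells. F3, tissue factor, was at 51.15 ± 0.289 CPM against 184 ± 13.8, 105 ± 7.29 and 279 ± 7.46 CPM, and lower in each comparison, though it did not pass against the adventitial-type cells without marker-carrying cells (adjusted p = 0.053). Against the adventitial-type cells 7 of the 13 were higher, Bmp5, Bmp7 and Tnc among them. Contractile genes were lower too: 7 of 10 against the inflammatory-type and 8 of 10 against the other Adamdec1 cells. Acta2, smooth muscle actin, was at 129 ± 55.0 CPM against 333 ± 15.9 and 421 ± 4.22 CPM. Without marker-carrying cells 9 and 8 of the 10 were lower in these comparisons, but smooth muscle markers were not counted in that setting. At least 3 smooth muscle markers were found in 9 Ces1d/C1qtnf3, 24 inflammatory-type and 107 other Adamdec1 cells. Acta2, Tagln and Tpm2 were higher than in the adventitial-type cells, but without marker-carrying cells none of the 10 passed the test there.

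Genes of antigen presentation and of the interferon response differed mainly by the group compared. Of 33 tested, 11 were higher than in the adventitial-type cells and 5 lower, while 15 were lower and 4 higher than in the other Adamdec1 cells, and 12 lower and 1 higher than in the inflammatory-type cells. The MHC class I genes H2-K1 and H2-D1 and their partner B2m were higher than in the adventitial-type cells. The class II genes H2-Aa, H2-Ab1, H2-Eb1 and Cd74, normally from antigen-presenting cells, accounted for 4 of the 12. Without marker-carrying cells 3 of the 30 genes then tested were lower than in the inflammatory-type cells and 6 lower than in the other Adamdec1 cells, and the Cd74 difference from the inflammatory-type cells was 0.21 (adjusted p = 0.7). Iigp1, among the 15 lower than in the other Adamdec1 cells, was then higher by 0.90 (adjusted p = 0.02). Ifitm1, a membrane protein of the interferon-induced family, was higher in each comparison, at 1126 ± 113 CPM against 577 ± 32.9, 123 ± 2.15 and 472 ± 56.8 CPM. It has close paralogues, between which reads may have been divided.

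Of 9 tested complement genes, 7 were higher and 1 lower than in the other Adamdec1 cells, 5 higher and 1 lower than in the inflammatory-type cells, and 2 higher and 3 lower than in the adventitial-type cells. Without marker-carrying cells 6, 3 and 4 of 8 were higher in this order. For this list and the next ones, the shares over all genes were 11.0% and 14.4% (other Adamdec1), 5.64% and 10.1% (inflammatory-type) and 9.08% and 12.3% (adventitial-type). C4b was at 240 ± 30.3 CPM against 142 ± 69.0, 70.8 ± 14.5 and 52.25 ± 21.2 CPM, and C3 was at 64.4 ± 8.03 CPM, far below the 874 ± 214 CPM of the adventitial-type cells. Of 11 tested genes of retinoid and aldehyde metabolism, 2, 5 and 4 were higher and 2 lower each time, in the order inflammatory-type, adventitial-type and other Adamdec1 cells. One of the 11, Adh1, reached the filter on low counts through the Ces1d/C1qtnf3 cells alone. Rarres2, the chemoattractant chemerin, was at 2313 ± 120 CPM and higher in each comparison (0.97 ± 0.13, 2.32 ± 0.14 and 1.59 ± 0.13). Of 17 tested lipid-handling genes, 3, 3 and 4 were higher and 6, 3 and 6 lower in the same order. Without marker-carrying cells 14 were tested, with 0, 4 and 4 higher and 3, 3 and 2 lower. Lpl, lipoprotein lipase, was at 222 ± 7.71 CPM against 114 ± 6.63, 71.8 ± 0.819 and 57.5 ± 12.3 CPM. Other carboxylesterases were scarce. Of 6 listed ones found in the tables, Ces1g passed the filter on low counts, at 22.2 ± 10.6 CPM, and it had no UMI in the adventitial-type cells. Of 5 tested genes of C1q and TNF related proteins and their receptors, C1qtnf2 was higher than in the inflammatory-type and other Adamdec1 cells, C1qtnf7 lower than in the adventitial-type and Adipor1 lower than in the other Adamdec1 cells. C1qtnf2 was at 64.4 ± 8.03 CPM and did not pass in any comparison without marker-carrying cells, nor did Adipor1 (adjusted p = 0.24 against the other Adamdec1 cells). Of 3 tested serpins and acute-phase genes, Serpina3g and Cp were higher than in the adventitial-type cells, and Serpina3g was higher and Lcn2 lower than in the other Adamdec1 cells. Of 8 tested genes of prostanoid synthesis and breakdown, 1, 2 and 0 were higher and 2, 1 and 2 lower. Ptgs2, the inducible cyclooxygenase, was lower than in the inflammatory-type (256 ± 76.5 against 882 ± 26.3 CPM) and other Adamdec1 cells (798 ± 176 CPM).

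Of 34 tested transcription factors, 5 were higher and 7 lower than in the inflammatory-type cells, 8 higher and 13 lower than in the adventitial-type cells, and 8 higher and 6 lower than in the other Adamdec1 cells. Without marker-carrying cells 3 were higher than in the inflammatory-type cells, and 5 higher and 11 lower than in the other Adamdec1 cells. All tested genes, with all cells, had shares of 5.64% and 10.1% (inflammatory-type), 9.08% and 12.3% (adventitial-type) and 11.0% and 14.4% (other Adamdec1). Tcf21, a factor of mesenchymal development, was at 601, 307, 642, 584 and 657.5 CPM by collection, lowest in 1B. It was at 226.5 ± 63.8, 107 ± 4.36 and 150 ± 21.3 CPM in the inflammatory-type, adventitial-type and other Adamdec1 cells (adjusted p = 7.3e-06, 1.4e-09 and 4.7e-10). Pitx1 (177 ± 13.7 CPM) and Hoxa10 (53.0 ± 2.88 CPM), factors of the hind body, were also higher in each comparison, and Foxp1 and Ebf1 were lower in each. Pitx1, Hoxa10 and Foxp1 did not pass against the other Adamdec1 cells without marker-carrying cells (adjusted p = 0.052, 0.12 and 0.3), nor Pitx1 and Foxp1 against the inflammatory-type cells (adjusted p = 0.054 and 0.62). Of 5 tested proliferation genes, Pcna was lower in each comparison, Stmn1 was lower than in the inflammatory-type and other Adamdec1 cells, Mki67 was lower than in the latter, and Top2a was higher than in the adventitial-type and lower than in the other Adamdec1 cells. Stmn1 did not pass in either comparison without marker-carrying cells (adjusted p = 0.25 in both), nor Top2a against the other Adamdec1 cells (adjusted p = 0.53). With cells of 1 or more genes of the Ces1d set, the Stmn1 difference from the other Adamdec1 cells was 0.02 (adjusted p = 0.98).

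Levels changed below the threshold of 2 genes and across it, but not every gene went on changing above it. These levels describe the rule and carry no test. Among fibroblasts with Adamdec1 and few genes of the other sets, 1012 had none of the Ces1d set, 610 had 1, 403 had 2, 184 had 3 and 39 had 4. Their median UMI counts were 1300, 1240, 1369, 1490 and 1544. Sfrp1 stood at 218 ± 17.9, 675 ± 91.3, 969 ± 126, 1315 ± 291 and 1404 ± 164 CPM in this order. Hsd11b1 stood at 27.3 ± 8.98 CPM with none, 105 ± 8.91 CPM just below the threshold and 293 ± 10.6 CPM just above it. With 3 and 4 genes it was at 321 ± 11.1 and 290 ± 143 CPM. Grem1 was at 140 ± 21.1 CPM just below and 302 ± 14.3 CPM just above, and Plau at 117 ± 14.5 and 20.8 ± 4.86 CPM. With 3 and 4 genes Grem1 was at 333 ± 51.4 and 352 ± 186 CPM, and Plau at 17.8 ± 15.9 and 62.8 ± 88.9 CPM. Pdgfra showed no such step, at 254 ± 12.7, 182 ± 27.9, 204 ± 12.4, 180 ± 24.7 and 225 ± 7.29 CPM from none to 4 genes. Edil3 was at 76.6 ± 9.95 CPM with 1 gene and 138 ± 11.1, 159 ± 29.5 and 77.5 ± 20.7 CPM with 2, 3 and 4. The cells with 1 gene belong to no group compared above.

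**Figure D4:**
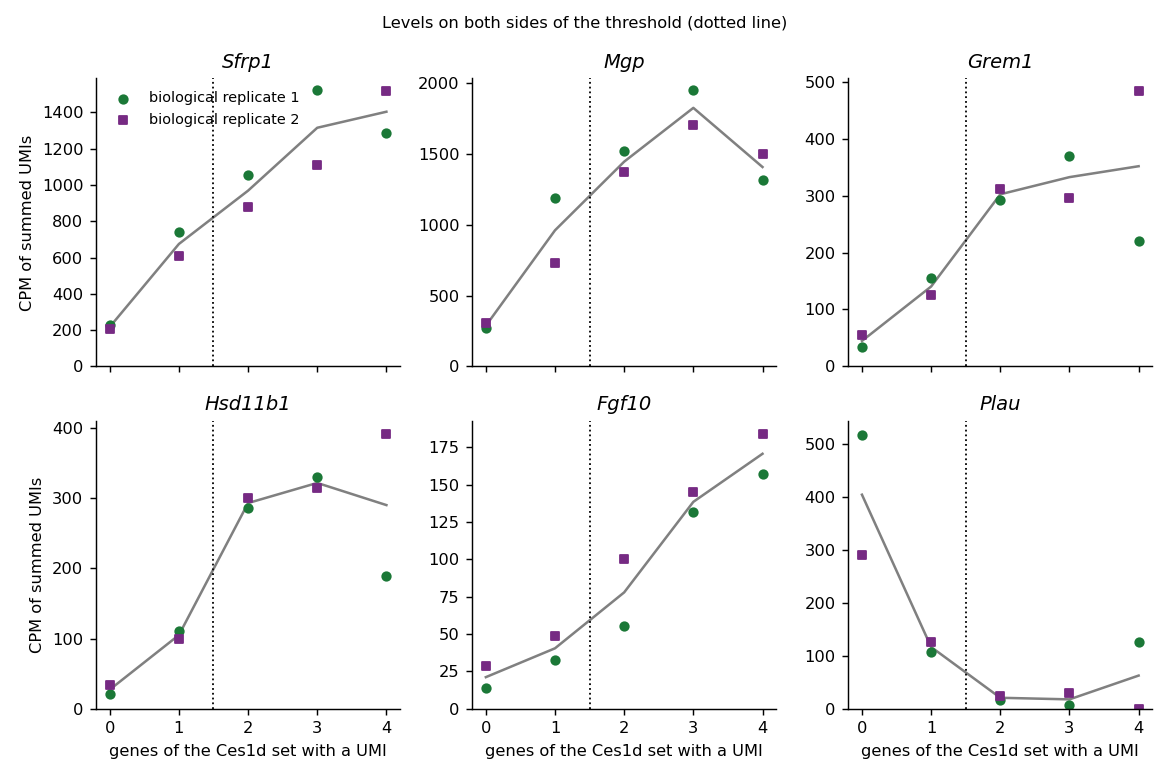
Level (CPM of summed UMIs) of 6 genes in fibroblasts with Adamdec1 by how many of the 4 genes of the Ces1d set had a UMI; points are the biological replicates, the line their mean, and the dotted line the threshold of 2. Sfrp1 went from 218 CPM with no gene to 1404 CPM with 4. Plau went from 405 CPM with no gene to 20.8 CPM with 2 and was at 17.8 and 62.8 CPM with 3 and 4. The replicates of the 39 cells with 4 genes lay far apart for Grem1, Hsd11b1 and Plau.

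The Ces1d/C1qtnf3 cells did not form 1 cluster. When all 6005 cells were clustered on genes other than the 20 of the rule, 255 of the 626 (40.7%) fell into a cluster led by Grem1, Ccdc80 and Ccl11. Another 221 (35.3%) fell into a cluster led by Stmn2, Osr1 and Ctsk, and 89 (14.2%) into one led by Serpina3g, Cxcl10 and Ptges. They made up 35.2%, 33.0% and 18.8% of these clusters. The remaining cells were spread over smaller shares, among them 20 in a cluster led by Aldh1a1 and 12 in the one led by Pi16. The Grem1 cluster held 30.9% (2B) to 47.2% (1A) of each collection's Ces1d/C1qtnf3 cells, the Stmn2 cluster 26.4% (1A) to 45.7% (2B) and the Serpina3g cluster 12.8% to 16.6%.

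Levels in the 3 clusters are given as a description, because the clusters were made from these genes. Ces1d was at 650 ± 53.0, 592 ± 81.0 and 753 ± 215 CPM in the Ces1d/C1qtnf3 cells of the Grem1, Stmn2 and Serpina3g clusters, and C1qtnf3 at 1179 ± 199, 1219 ± 101 and 1048 ± 183 CPM. Htra3 was at 643 ± 1.06, 811 ± 56.8 and 357 ± 18.8 CPM and Serpina3n at 539 ± 17.6, 504 ± 108 and 344 ± 36.2 CPM, both lowest in the Serpina3g cluster. Mgp was at 2228 ± 36.2 and 2016 ± 567 CPM in the first 2 and 256 ± 84.1 CPM in the Serpina3g cluster. Mfap4 was at 684 ± 118, 703 ± 59.0 and 188 ± 5.60 CPM. Cxcl10, an interferon-induced chemokine, was at 278 ± 88.4, 38.7 ± 6.55 and 968 ± 244 CPM. Stmn2 was at 133 ± 10.8, 617 ± 14.9 and 290 ± 41.3 CPM, and Mfap5 at 282 ± 22.3, 524 ± 91.5 and 68.2 ± 77.0 CPM. Cxcl13 was highest in the Grem1 cluster, at 181 ± 56.7 CPM against 31.4 ± 16.9 and 49.8 ± 51.0 CPM. Tnfsf13b was highest in the Stmn2 cluster, at 131 ± 14.0 CPM against 75.1 ± 14.4 and 13.0 ± 1.02 CPM. The Serpina3g cluster also held 102 of the 241 inflammatory-type cells and 67 of the other Adamdec1 cells. Of the 1012 other Adamdec1 cells, 233 fell into a cluster led by Nrg1, Il1rl1 and Plau and 215 into the one led by Aldh1a1. Another 97, 91 and 78 fell into clusters led by Stmn2, Hhip and Grem1, and 59 and 56 into clusters led by C1qa and Flt1. The cluster led by Pi16 held 289 of the 329 adventitial-type cells.

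**Figure D5:**
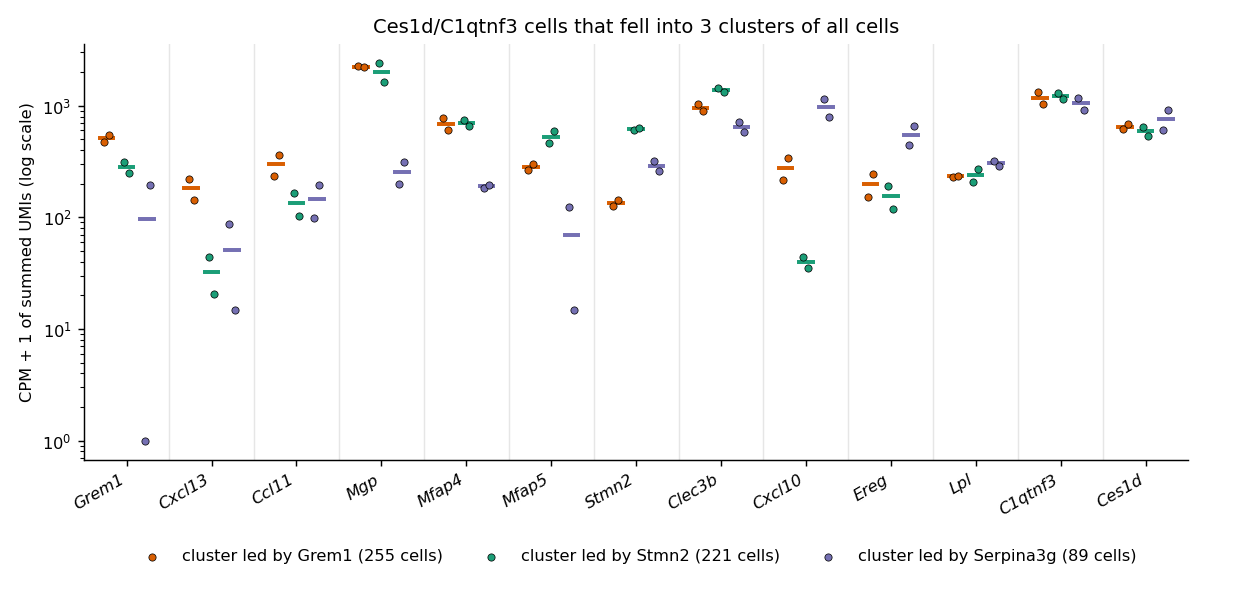
Levels of 13 genes (CPM + 1, log scale) in the Ces1d/C1qtnf3 cells of the 3 clusters that held most of them; points are the biological replicates and bars their mean. C1qtnf3 stayed between 1048 and 1219 CPM, whereas Mgp stood at 2228, 2016 and 256 CPM and Cxcl10 at 278, 38.7 and 968 CPM in the clusters led by Grem1, Stmn2 and Serpina3g, and 1 point of Grem1 at the bottom is a replicate with no UMI.

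Between the biological replicates, the Ces1d/C1qtnf3 cells differed in few genes. Of 3671 genes tested over collections, 1 was higher in replicate 2 (0.0272%) and 4 were lower (0.109%), and 213 had an unadjusted p under 0.05. The test sets 2 collections against 3, and collections of 1 replicate are technical repeats, so p covers only the spread between collections. Hspb1, a small heat-shock protein, was at 383 and 344 CPM in 1A and 1B and at 557, 918 and 826.5 CPM in 2A, 2B and 2C, without overlap (1.08 ± 0.21, adjusted p = 0.032). It did not pass at 500 genes per barcode, with 3 genes of the Ces1d set or without 2B, where no gene was higher. In replicate 2, 3 cells held 71 of its 413 UMIs. Mylk, myosin light chain kinase, was at 156 and 344 CPM in replicate 1 and at 47.75, 20.9 and 47.0 CPM in replicate 2 (-2.59 ± 0.38, adjusted p = 0.0019). In replicate 1, 3 cells held 58 of its 114 UMIs, and smooth muscle markers summed to 196 to 1289 CPM by collection. Mylk did not pass without marker-carrying cells (adjusted p = 0.17), a setting in which smooth muscle markers were not counted. The other 3 lower genes, Igkc, Igha and Igj, are immunoglobulin genes of plasma cells; their collections overlapped, and they are named after their values were seen. In replicate 1 a single cell held 942 of 1125 Igkc UMIs, a single cell 870 of 1114 Igha UMIs and a single cell 264 of 313 Igj UMIs. Without marker-carrying cells, 2 genes were higher and 1 lower.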

How the data were processed

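Single-cell RNA was measured in 5 Drop-seq collections of 2 biological replicates. The deposited tables hold UMI counts per gene and cell barcode, not normalized. Per the submitters' processing notes, STAR 2.6 and build mm10 were used; the counting tool and its strand setting are not given in the sources used here. The tables list 7935 barcodes; 1263 had under 300 genes, and a further 667 had over 10% mitochondrial UMIs.

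Cells were gated by gene, with no cluster or author annotation. The cells described, the groups and the gene lists were chosen with earlier results of these data known. Raw UMI counts were added up over the cells of a group in each biological replicate (2 sums per group; totals over both replicates of 1016348, 566519, 625977 and 1810922 UMIs for the Ces1d/C1qtnf3, inflammatory-type, adventitial-type and other Adamdec1 cells). One edgeR 4.0.16 quasi-likelihood fit (R 4.3.3, TMM, filterByExpr) held all 4 groups and the replicate as a block, without the 20 genes of the rule, and p-values were adjusted by Benjamini-Hochberg over 6595 genes. The replicate is a block because groups of 1 replicate come from the same cells in suspension; differences between replicates correlated by 0.0217 to 0.1715 between the 6 pairs of groups (6615 genes). Replicates were compared on the Ces1d/C1qtnf3 cells summed per collection.

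Named genes were, per comparison, the 10 largest differences in each direction at an adjusted p under 0.05, at least 100 CPM in the higher group and the same direction in both replicates. From each list they were the 4 members with the highest counts and those that passed at 50 CPM or more. Other list members that passed are named without values. Some results are not reported here. Of 291 named genes, 290 were found in GENCODE M21, which gave positions, and 139 overlap another gene. Clustering (scanpy 1.11.5, 2000 variable genes, 30 principal components, 15 neighbours, Leiden resolution 1.0) and Scrublet (expected rate 0.05) were run on the 6005 cells. On simulated data with 6428 genes, 31.9% (inflammatory-type), 38.5% (adventitial-type) and 48.4% (other Adamdec1) of 2-fold changes were recovered, and 85.4%, 83.3% and 91.7% of 4-fold changes.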

Additional observations from a re-analysis of the deposited data

Results flagged for a closer look

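For the Ces1d/C1qtnf3 cells, 29 series of 5 collection values were examined, with shares of cells among them as well as gene levels. Dixon's test at its 95% critical value looked for 1 collection far from the other 4. It flagged 5 series (17.2%), all of them gene levels. Igkc stood at 5131 CPM in collection 1B against 85.9 to 188 CPM in the others. Igha stood at 4982 CPM and Igj at 1386 CPM in the same collection. In replicate 1 a single cell held 942 of the 1125 UMIs of Igkc, 870 of the 1114 of Igha and 264 of the 313 of Igj. Cxcl12 was highest in collection 1A, at 1484 CPM against 994 to 1071 CPM. Tcf21 was lowest in collection 1B, at 307 CPM against 584 to 658 CPM.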

How the results depend on the processing

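Counts of genes past the threshold are given as higher and lower, for the other Adamdec1, adventitial-type and inflammatory-type cells in turn. Splitting the UMIs gave 182 and 220, 292 and 367, and 74 and 153. DESeq2 gave 240 and 369, 213 and 439, and 99 and 314. Leaving out marker-carrying cells gave 338 and 500, 659 and 832, and 153 and 371. Requiring 1 gene of the Ces1d set gave 432 and 653, 520 and 820, and 117 and 331, and requiring 3 gave 503 and 605 against the other Adamdec1 cells. Cells of 1000 to 4000 UMIs gave 153 and 380 against the inflammatory-type cells. Alternatives chosen after seeing the data were a gate of 4 fibroblast genes, with 321 and 519, 481 and 642, and 187 and 424, and leaving out cells of 50 or more marker UMIs of another type, with 236 higher than in the inflammatory-type cells. Without the replicate block the counts were 572 and 800, 530 and 722, and 293 and 587. Minimum genes per barcode, mitochondrial UMIs, the filter on low counts, sums per collection and removal of high doublet scores left these counts within 1.5 times. Leaving out 1 collection gave 412 to 628 and 570 to 827, 416 to 560 and 525 to 735, and 210 to 369 and 416 to 678. Without a whole biological replicate no residual spread was left to test.

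Between replicates, 1 gene was higher and 4 lower. The other counts were 2 and 2 with DESeq2 or cells of 1000 to 4000 UMIs, 4 and 14 with every gene of at least 1 UMI, 0 and 1 at 500 genes per barcode, 0 and 2 with 3 genes of the Ces1d set, 2 and 4 with 1, 2 and 1 without marker-carrying cells by either definition, 2 and 3 without high doublet scores, 2 and 5 with 4 fibroblast genes, and 1 and 7 with split UMIs. Leaving out 1 collection gave 0 to 7 and 0 to 12. Without 2B both were 0, and without 1B they were 7 and 9.

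The direction of some named genes turned, and the cause was not tested. Without marker-carrying cells, the differences from the other Adamdec1 cells were -0.029 for Tnc, 0.51 for Apoe, 0.50 for Fabp4, -0.037 for Igfbp6 and -0.052 for Egr1. Iigp1 differed by 0.90 there and passed in the turned direction (adjusted p = 0.02). Those from the inflammatory-type cells were 0.23 for H2-Aa, 0.39 for H2-Ab1, 0.21 for Cd74 and 0.059 for Ly6c1. With split UMIs the differences were -0.48 for Ghr and -0.004 for Egr1 (other Adamdec1) and -0.001 for Nfia and 0.10 for Actg2 (inflammatory-type). With 1 gene of the Ces1d set they were 0.042 for H2-Aa and 0.092 for Cd74 (adventitial-type) and 0.02 for Stmn1 (other Adamdec1). With 4 fibroblast genes they were 0.85 for H2-Aa, 1.07 for H2-Eb1 and 0.51 for Cd74 (adventitial-type). At 1000 to 4000 UMIs Rnd1 was at 1.02 (inflammatory-type). Of 162 list counts, 44 were over 1.5 times smaller and 13 larger without marker-carrying cells, and 76 and 2 with split UMIs. At these depths and with 2 sums per group, 31.9% to 48.4% of simulated 2-fold changes were recovered; depth and the number of sums were not varied.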
